A study of Gallus gallus with 12 samples.

Results

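The Krüppel-like factor (KLF) genes KLF2, KLF3, KLF4, KLF5, KLF6, KLF7, KLF9, KLF10, KLF11 and KLF15 were followed in chick limb-bud cells that overexpressed a transcription factor. They were taken by name from the gene counts, as 10 of 21350 listed features, and all 10 had enough counts to be tested. The cells were mesenchymal cells from limb buds of Lohmann Selected Leghorn embryos at embryonic day 4.5, grown as dense droplets for 5 days. Before plating they were infected with retroviral particles of the type RCAS-BP(A), a vector that copies itself and spreads among chick cells. The vector carried the coding sequence of KLF2, KLF4, OSR1, OSR2 or EGR1 (labelled RCAS-BP(A)-KLF2-3F and so on), or no insert in Control (RCAS-BP(A)-empty). Control cells were therefore infected too. Each of the 6 groups had 2 libraries of poly(A) RNA, and each RNA extract pooled 6 cultures. The labels give neither the species of the inserts nor the share of cells infected, nor whether the replicates are from separate embryos. The p-values therefore reflect the spread between libraries, which may be technical.

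KLF proteins bind GC-rich and CACCC sequences in promoters through zinc fingers at their carboxyl end, which differ little between members. Their other parts differ and sort the family by partner: KLF3, KLF8 and KLF12 recruit the corepressor CtBP, KLF9, KLF10, KLF11 and KLF13 recruit SIN3A, and KLF1, KLF2, KLF4, KLF5, KLF6 and KLF7 mostly activate. Members can act on one another's genes, and in mouse blood cells KLF1 activates the KLF3 gene and KLF3 represses the KLF8 gene. KLF2 and KLF4 are best known from endothelium, where blood flow induces both, and KLF4 and KLF5 from epithelia. Whether the RNA of paralogs moves, and in which direction, when a member is overexpressed is the question the comparisons address.

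Libraries held from 51233721 to 106079374 counts, and the Control libraries were the shallowest. Control also stood apart from the 10 libraries with an insert in 2 other ways. The inserted genes and vector entries together took 0.941% to 2.754% of counts in libraries with an insert and 3.484% and 3.458% in Control, and 5.8S rRNA stood at 1307 to 5607 CPM, against 799 and 975.1 CPM in Control. Their part in changes that all 5 inserts share against Control was not tested. Among libraries with an insert, inserted genes and vector entries took 0.941% to 1.155% with KLF2 or KLF4 and 1.97% to 2.148% with OSR1 or OSR2. With EGR1 they took 2.754% and 2.407%. These shares include the inserted genes, at 8390 ± 1300 CPM for EGR1, 3200 ± 25 CPM for OSR1 and 2100 ± 32 CPM for OSR2 in their own libraries. The 4 vector entries are the rows gag, pol, env and ERVK-11. None of the 4 was called between OSR1 and OSR2 and EGR1 (median -0.07). All 4 vector entries were called lower in KLF2 and KLF4 than in OSR1 and OSR2 (median -0.95) and than in EGR1 (median -1.02). The part of this difference in contrasts between inserts was not tested. Counts of a member ran from 402, where counting error alone is 4.99% (1 SD), to 172046. Levels are given as counts per 1e+06 counts (CPM) with scaled library sizes, as mean ± SD of 2 libraries where a single value is printed. CPM values do not allow for gene length, so they are compared between groups and not between genes. Fold changes are log2 values with their standard error (SE) and an unadjusted 95% interval where one is printed. A gene was called at an adjusted p under 0.05 in edgeR's quasi-likelihood test with Benjamini-Hochberg adjustment over all 18979 genes tested, and adjusted p-values without another name are from that test. Contrasts of KLF2 and KLF4 with OSR1 and OSR2 or with EGR1, and of OSR1 and OSR2 with EGR1, were chosen after the values were seen. Their adjusted p-values below do not allow for that choice.

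The counts of KLF2 and KLF4 in their own libraries include the insert. KLF2 had 1793 and 1613 CPM in KLF2 libraries, against 27.4 and 39.8 CPM in Control (log2 fold change 5.66, SE 0.28, adjusted p = 1.6e-05). KLF4 had 1292 and 1176 CPM in KLF4 libraries, against 17.1 and 18.8 CPM in Control (6.11, SE 0.11, adjusted p = 3.3e-09). The counts do not split insert from endogenous transcripts, so neither value says what the endogenous gene did in its own libraries.

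Neither inserted KLF came with a called change of the other. KLF4 had 16.1 and 18.2 CPM in KLF2 libraries, against 17.1 and 18.8 CPM in Control. The groups overlap, and the log2 difference was -0.06 with an interval from -0.31 to 0.19 (adjusted p = 0.67). KLF2 had 29.9 and 30.3 CPM in KLF4 libraries, against 27.4 and 39.8 CPM in Control, a log2 difference of -0.16 with a wide interval from -0.80 to 0.49 (adjusted p = 0.66).

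KLF4 was higher with both OSR inserts. It had 28.1 and 31.2 CPM in OSR1 libraries and 29.6 and 35.0 CPM in OSR2 libraries, against 17.1 and 18.8 CPM in Control. The rise in OSR1 was 0.72 (SE 0.11, adjusted p = 0.00052). In OSR2 it was 0.85 (SE 0.11, adjusted p = 0.00017), and neither group overlapped Control. In EGR1 libraries it had 15.8 and 18.0 CPM, which overlaps Control. KLF4 was also higher in OSR1 and OSR2 than in EGR1 libraries (0.88, SE 0.10, adjusted p = 0.00012).

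KLF2 was not called with any insert other than its own. It had 39.5 and 74.2 CPM in OSR1 libraries, 54.9 and 57.2 CPM in OSR2 libraries and 41.9 and 34.5 CPM in EGR1 libraries, against 27.4 and 39.8 CPM in Control. The difference from Control was 0.76 in OSR1 (SE 0.28, interval 0.12 to 1.4, adjusted p = 0.051) and 0.74 in OSR2 (SE 0.28, interval 0.10 to 1.38, adjusted p = 0.056), neither of which was called. Of 20 alternatives, 4 called the OSR1 difference and 6 the OSR2 difference. Both were called by DESeq2 (adjusted p = 0.0053 and 0.0084) and with the spread estimated without edgeR's robust option (0.03 and 0.033). In a fit of only the groups compared, the adjusted p was 0.2 in OSR1 and 0.0057 in OSR2. Without Control replicate 2 the differences were 1.06 and 1.04, and without Control replicate 1 the OSR1 difference was 0.51. Without OSR1 replicate 1 the OSR1 difference was 1.14 (adjusted p = 0.00095) and without OSR1 replicate 2 it was 0.24 (adjusted p = 0.35), so the size of the OSR1 difference rests on 1 library. Without either OSR1 library the OSR2 difference was called too (0.74, adjusted p = 0.0032 each).

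**Figure D1:**
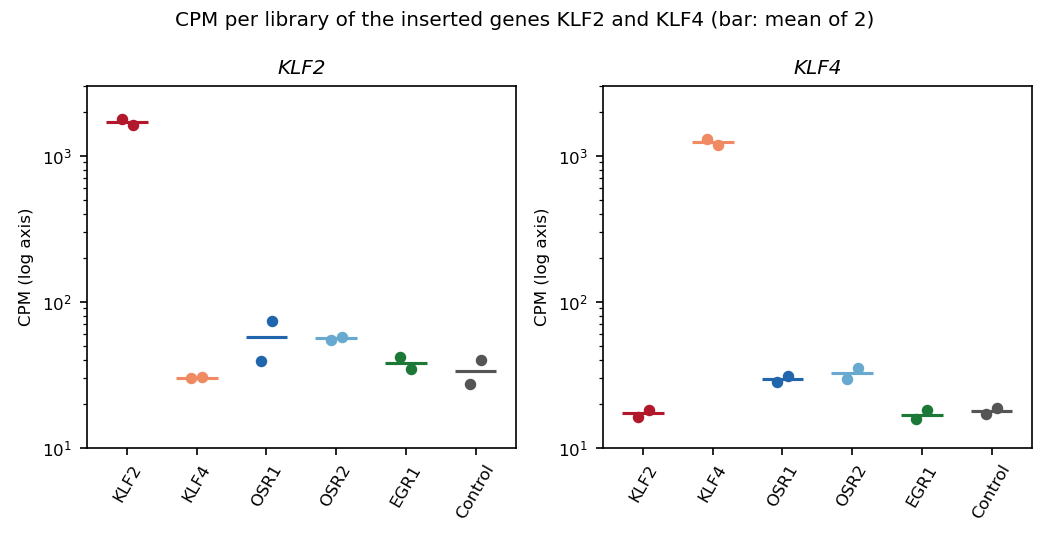
CPM of KLF2 (left) and KLF4 (right) in each of the 12 libraries on a log axis, with points for libraries and bars for the mean of 2. KLF4 counts in KLF2 libraries (16.1 and 18.2 CPM) and KLF2 counts in KLF4 libraries (29.9 and 30.3 CPM) overlap the Control values (17.1 and 18.8 CPM of KLF4, 27.4 and 39.8 CPM of KLF2), and KLF4 stands higher in OSR1 and OSR2 libraries.

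Among the 8 members that no vector carried, changes went both ways in both KLF groups. In KLF2 libraries KLF3, KLF10 and KLF11 rose, KLF5, KLF7 and KLF15 fell, and KLF6 and KLF9 were not called. In KLF4 libraries KLF3, KLF9, KLF10 and KLF11 rose, KLF5, KLF7 and KLF15 fell, and KLF6 was not called. That is 6 and 7 of 8 members, but over all genes tested 51.6% were called in KLF2 (28.1% higher and 23.5% lower) and 54.2% in KLF4 (28.7% higher and 25.5% lower), so a call is common there. The median log2 fold change of the 8 was -0.07 in KLF2 and 0.19 in KLF4, against 0.02 and -0.01 over all genes, and the called paralogs did not share a direction. Together the 8 members took 301.9 and 273.3 CPM in KLF2 libraries and 356.4 and 343.1 CPM in KLF4 libraries, against 246.3 and 259.2 CPM in Control, so their summed counts were higher in all 4 KLF libraries. The sums include KLF3, which had 67.3 and 54.2 CPM in KLF2 libraries, against 32.1 and 31.3 CPM in Control. In KLF2 libraries they therefore do not show a rise of the other members. In KLF4 libraries KLF3 had 93.4 and 87.7 CPM, and the sums rose over Control by more than KLF3 did.

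The OSR and EGR1 groups set a scale for these changes, with the reservation that all 5 comparisons use the same 2 Control libraries. Of the 8 members, OSR1 had 3 higher and 2 lower (51.0% of all genes called, 28.4% higher and 22.7% lower), OSR2 had 4 higher and 2 lower (51.9%, 28.9% and 23.0%), and EGR1 had 2 higher and none lower (45.1%, 24.6% and 20.5%). The 4 libraries of OSR1 and OSR2 summed to between 245.8 and 276.0 CPM, and the EGR1 libraries to 271.3 and 265.0 CPM. Marker genes of other tissues moved with the OSR groups, and some with the KLF groups. Cartilage markers summed to between 2630 and 3080 CPM in OSR1 and 1720 and 1860 CPM in OSR2, against 11100 and 12300 CPM in Control, with 6 of 6 called lower in both, and to between 7610 and 9610 CPM in the 4 KLF libraries. Skeletal muscle markers summed to between 775 and 821 CPM in OSR1 and 820 and 821 CPM in OSR2, and to between 413 and 548 CPM in the 4 KLF libraries, against 621 and 681 CPM in Control. Of 6 cartilage markers, 4 were called lower in KLF2 and 3 in KLF4, and 0 higher. Of 6 tested muscle markers, 4 were lower and 2 higher in KLF2, and 5 lower and 1 higher in KLF4. The part of these markers in the members' changes with the KLF and OSR inserts, and in the contrasts of KLF with OSR inserts, was not tested. The EGR1 calls rest on single libraries: both were lost without Control replicate 1 and without EGR1 replicate 1.

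**Figure D2:**
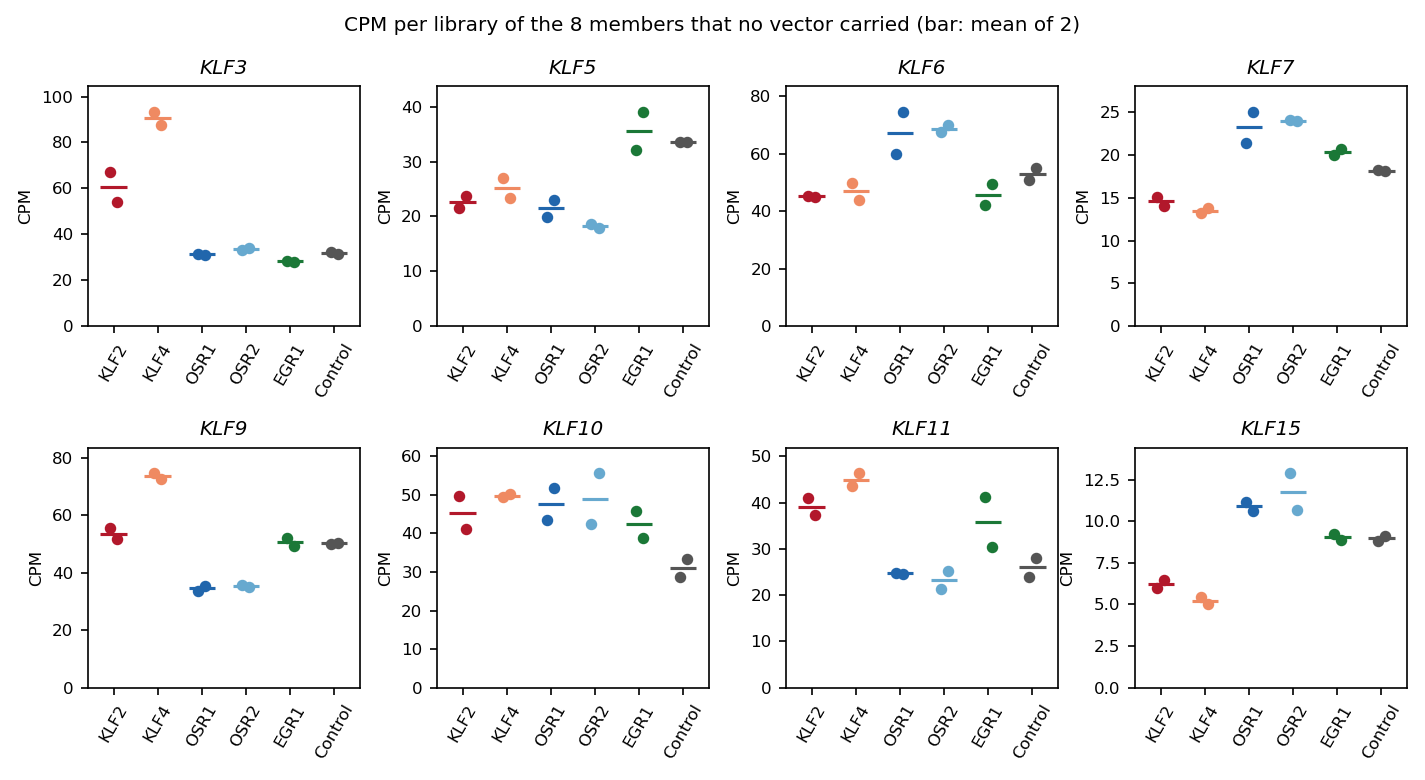
CPM per library of the 8 members that no vector carried, with points for libraries, bars for the mean of 2 and an axis from 0 in each panel. KLF3 stands apart in KLF2 and KLF4 libraries, KLF15 and KLF7 are lowest there and highest in OSR1 and OSR2 libraries, and KLF10 is above Control in all 5 groups with an insert.

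KLF3, the corepressor-recruiting member, rose most. It had 67.3 and 54.2 CPM in KLF2 libraries and 93.4 and 87.7 CPM in KLF4 libraries, against 32.1 and 31.3 CPM in Control. It had 31.5 and 30.9 CPM in OSR1, 33.2 and 34.0 CPM in OSR2 and 28.5 and 28.1 CPM in EGR1 libraries. Every KLF library thus lay above every other library, and the other 4 groups spanned only 28.1 to 34.0 CPM. The log2 fold change over Control was 0.94 in KLF2 (SE 0.10, adjusted p = 5.6e-05) and 1.51 in KLF4 (SE 0.10, adjusted p = 2.3e-06). With no Control library in the comparison, KLF3 was higher in KLF2 and KLF4 than in OSR1 and OSR2 (1.19, SE 0.07, adjusted p = 4.7e-07) and than in EGR1 (1.39, SE 0.08, adjusted p = 7e-06). In OSR1, OSR2 and EGR1 the difference from Control was -0.02, 0.09 and -0.16 and was not called.

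The rise of KLF3 was smaller in KLF2 than in KLF4 libraries, by -0.58 on the log2 scale (SE 0.10, adjusted p = 0.0099), where 2.66% of all genes were called (0.674% higher and 1.99% lower). Without KLF4 replicate 1 this difference was -0.53 (adjusted p = 0.13), without KLF4 replicate 2 -0.62 (adjusted p = 0.059), and in a fit of these 4 libraries alone the adjusted p was 0.10. The protein dose of the inserts was not measured.

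The other CtBP-recruiting genes, KLF8 and KLF12, were looked at as relatives outside the set. KLF12 had 222 ± 7.5 CPM in KLF2 and 248 ± 6.7 CPM in KLF4 libraries, against 150 ± 12 CPM in Control, and rose in both (0.57, SE 0.10, adjusted p = 0.00086, and 0.73, SE 0.10, adjusted p = 0.00018). It was at 157 ± 18, 162 ± 15 and 161 ± 4.6 CPM in OSR1, OSR2 and EGR1 libraries, none of which was called. KLF8 had 9.40 ± 2.9 CPM in KLF2 and 17.6 ± 0.17 CPM in KLF4 libraries, against 3.08 ± 0.54 CPM in Control (1.61, SE 0.36, adjusted p = 0.0062, and 2.51, SE 0.36, adjusted p = 0.00068). KLF8 also rose in OSR1 (1.53), OSR2 (1.46) and EGR1 libraries (1.4, each SE 0.36, adjusted p between 0.0082 and 0.014).

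The SIN3A-recruiting members KLF9, KLF10 and KLF11 did not move as a block. KLF9, a gene that glucocorticoid and thyroid hormone induce in mammals and frogs, had 55.7 and 51.6 CPM in KLF2 libraries and 74.7 and 72.7 CPM in KLF4 libraries, against 50.0 and 50.5 CPM in Control. It had 33.6 and 35.4 CPM in OSR1, 35.7 and 35.2 CPM in OSR2 and 52.0 and 49.4 CPM in EGR1 libraries. KLF4 libraries are highest, the 4 OSR libraries lowest, and the KLF2, EGR1 and Control libraries lie together between 49.4 and 55.7 CPM. KLF9 rose in KLF4 (0.55, SE 0.07, adjusted p = 0.00015) and fell in OSR1 (-0.54, SE 0.07, adjusted p = 2e-04) and OSR2 (-0.50, SE 0.07, adjusted p = 0.00027). In KLF2 libraries the difference was 0.09 with an interval from -0.06 to 0.25.

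KLF9 therefore separated the inserts in direct comparisons. It was lower in KLF2 than in KLF4 libraries (-0.46, SE 0.07, adjusted p = 0.0073), a call lost without KLF2 replicate 2 (adjusted p = 0.056), without KLF4 replicate 1 (0.11) or 2 (0.06) and in a fit of those 4 libraries alone (0.064), with log2 values from -0.55 to -0.40 over all alternatives tried. It was higher in KLF2 and KLF4 than in OSR1 and OSR2 libraries (0.85, SE 0.05, adjusted p = 6e-07). The mean of KLF2 and KLF4 was also above EGR1 (0.31, SE 0.06, adjusted p = 0.0063), a call lost without EGR1 replicate 2, when the log2 difference was 0.27. The KLF2 libraries (55.7 and 51.6 CPM) overlap EGR1 (52.0 and 49.4 CPM), so this difference rests mainly on the KLF4 libraries (74.7 and 72.7 CPM). KLF9 was lower in OSR1 and OSR2 than in EGR1 libraries (-0.54, SE 0.06, adjusted p = 0.00012).

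KLF11 was higher with the KLF inserts and not with the OSR inserts. It had 41.0 and 37.3 CPM in KLF2 libraries and 43.5 and 46.4 CPM in KLF4 libraries, against 24.0 and 28.1 CPM in Control. It had 24.9 and 24.5 CPM in OSR1, 21.4 and 25.3 CPM in OSR2 and 41.3 and 30.5 CPM in EGR1 libraries. The KLF libraries lie above all OSR and Control libraries, and the EGR1 libraries are spread across the gap. KLF11 rose in KLF2 (0.59, SE 0.14, adjusted p = 0.0063), KLF4 (0.79, SE 0.14, adjusted p = 0.0012) and EGR1 (0.46, SE 0.14, adjusted p = 0.023). The KLF2 call was lost without Control replicate 1 (0.48, adjusted p = 0.063) or KLF2 replicate 1 (0.48, adjusted p = 0.054), and the EGR1 call without Control replicate 1 (0.35, adjusted p = 0.16) or EGR1 replicate 1 (0.23, adjusted p = 0.23). Against OSR1 and OSR2, KLF11 was higher in KLF2 and KLF4 (0.80, SE 0.10, adjusted p = 0.00012) and lower in OSR1 and OSR2 than in EGR1 (-0.58, SE 0.12, adjusted p = 0.0066), the second of which was -0.34 without EGR1 replicate 1 (adjusted p = 0.12).

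KLF10, first described as a gene that TGF-beta induces early in human bone cells, was higher with every insert. Group means were 45.3 ± 6.1 CPM in KLF2, 49.7 ± 0.55 in KLF4, 47.6 ± 5.9 in OSR1, 49.0 ± 9.4 in OSR2 and 42.4 ± 5.1 in EGR1, against 31.0 ± 3.2 CPM in Control. Control is also the group with the fewest counts, the highest share of vector entries and the lowest 5.8S rRNA. No library with an insert lay below 38.8 CPM and no Control library above 33.3 CPM, while the 5 groups with an insert overlapped one another. The rises were 0.55 in KLF2, 0.68 in KLF4, 0.62 in OSR1, 0.66 in OSR2 and 0.45 in EGR1 (SE 0.15, adjusted p between 0.0042 and 0.037). None of the comparisons between groups with an insert called KLF10, with an interval from -0.26 to 0.22 for KLF2 and KLF4 over OSR1 and OSR2. Most of these calls rest on Control replicate 1: without it the adjusted p was 0.10 in KLF2, 0.071 in OSR1, 0.053 in OSR2 and 0.21 in EGR1, and only the KLF4 call was kept. They were also lost without KLF2 replicate 1 in KLF2 (0.37, adjusted p = 0.14), OSR1 replicate 2 in OSR1 (0.49, adjusted p = 0.053), OSR2 replicate 2 in OSR2 (0.45, adjusted p = 0.055), and Control replicate 2 (0.56, adjusted p = 0.05) or EGR1 replicate 1 (0.33, adjusted p = 0.22) in EGR1. The EGR1 call was lost as well without either KLF4 library (0.45, adjusted p = 0.054 each), which enter it only through the shared spread.

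KLF13, the SIN3A-recruiting relative outside the set, had 102 ± 9.1 CPM in KLF2 and 121 ± 1.8 CPM in KLF4 libraries, against 130 ± 11 CPM in Control, and fell in KLF2 (-0.34, SE 0.09, adjusted p = 0.0068) but was not called in KLF4 (-0.10, SE 0.09, adjusted p = 0.37). It fell in OSR1 and OSR2 (-0.42 in each, SE 0.09, adjusted p = 0.0026 and 0.0024).

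Among the activating members, KLF7 and KLF5 fell in both KLF groups. KLF7, a factor of neurite outgrowth in mouse, had 15.2 and 14.0 CPM in KLF2 libraries and 13.2 and 13.8 CPM in KLF4 libraries, against 18.2 and 18.1 CPM in Control. It had 21.4 and 25.1 CPM in OSR1, 24.1 and 23.9 CPM in OSR2 and 20.0 and 20.7 CPM in EGR1 libraries. All 4 KLF libraries lie below Control and all 6 others above it. KLF7 fell in KLF2 (-0.32, SE 0.10, adjusted p = 0.021) and KLF4 (-0.43, SE 0.10, adjusted p = 0.0043) and was called higher with both OSR inserts, at 0.35 in OSR1 (SE 0.10, adjusted p = 0.013) and 0.40 in OSR2 (SE 0.10, adjusted p = 0.0063).

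The direct comparisons of KLF7 need no Control library. It was lower in KLF2 and KLF4 than in OSR1 and OSR2 (-0.75, SE 0.07, adjusted p = 1.3e-05) and than in EGR1 (-0.54, SE 0.08, adjusted p = 0.0014), and both calls held under all alternatives. Against Control, the KLF2 call was lost without Control replicate 1 (adjusted p = 0.094), Control replicate 2 (0.075) or KLF2 replicate 2 (0.097), and in a fit of those 4 libraries (0.074). The OSR1 call was lost without Control replicate 1 (0.064), Control replicate 2 (0.059) or OSR1 replicate 2 (0.24, adjusted p = 0.11), and in a fit of those 4 libraries (0.075).

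KLF5, which maintains dividing epithelium and acts in injured smooth muscle of mouse, had 21.6 and 23.7 CPM in KLF2 libraries and 27.0 and 23.4 CPM in KLF4 libraries, against 33.5 and 33.5 CPM in Control. It had 19.9 and 23.0 CPM in OSR1, 18.7 and 17.9 CPM in OSR2 and 32.1 and 39.1 CPM in EGR1 libraries. The EGR1 and Control libraries are high and overlap, and the 8 libraries of the other 4 inserts are all lower. KLF5 fell in KLF2 (-0.57, SE 0.12, adjusted p = 0.0029), KLF4 (-0.41, SE 0.12, adjusted p = 0.014), OSR1 (-0.64, SE 0.12, adjusted p = 0.0015) and OSR2 (-0.87, SE 0.12, adjusted p = 0.00023). The KLF4 call was lost without Control replicate 1 (adjusted p = 0.061), Control replicate 2 (0.055) or KLF4 replicate 2 (-0.31, adjusted p = 0.13).

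The contrast of KLF5 with EGR1 was tested directly. KLF5 was lower in KLF2 and KLF4 than in EGR1 libraries (-0.58, SE 0.10, adjusted p = 0.0028, lost without EGR1 replicate 2 at -0.43, adjusted p = 0.054) and lower in OSR1 and OSR2 than in EGR1 libraries (-0.85, SE 0.10, adjusted p = 0.00017). It was also higher in KLF2 and KLF4 than in OSR1 and OSR2 libraries (0.27, SE 0.08, adjusted p = 0.031). That last call was lost in 6 of the alternatives, among them without OSR1 replicate 1, OSR2 replicate 1, OSR2 replicate 2, KLF2 replicate 2 or KLF4 replicate 1 (adjusted p from 0.063 to 0.13).

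KLF6, an early response gene of injured tissue, was higher with the OSR inserts. It had 45.5 and 45.0 CPM in KLF2 libraries and 49.8 and 44.1 CPM in KLF4 libraries, against 50.9 and 55.2 CPM in Control, with log2 differences of -0.23 (interval -0.49 to 0.03, adjusted p = 0.12) and -0.18 (interval -0.43 to 0.08, adjusted p = 0.22). It had 59.9 and 74.7 CPM in OSR1 and 67.4 and 69.9 CPM in OSR2 libraries and rose in both (0.34, adjusted p = 0.03, and 0.37, adjusted p = 0.02, SE 0.12). Neither rise held: without Control replicate 1 they were 0.29 and 0.32 (adjusted p = 0.16 and 0.13), without OSR1 replicate 2 the OSR1 value was 0.18 (adjusted p = 0.25), without Control replicate 2 it was 0.41 (adjusted p = 0.054), and without OSR2 replicate 1 or 2 the OSR2 adjusted p was 0.051 and 0.093. With no Control library involved, KLF6 was lower in KLF2 and KLF4 than in OSR1 and OSR2 libraries (-0.56, SE 0.08, adjusted p = 0.00035), a call that held under all alternatives, and higher in OSR1 and OSR2 than in EGR1 libraries (0.57, SE 0.10, adjusted p = 0.0027, and 0.45 with adjusted p = 0.051 without EGR1 replicate 1).

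KLF15, a glucocorticoid-induced regulator of glucose and amino acid metabolism in mouse, was the member with the largest fall in the KLF4 group. It had 5.97 and 6.45 CPM in KLF2 libraries and 5.44 and 5.00 CPM in KLF4 libraries, against 8.83 and 9.11 CPM in Control. It had 11.2 and 10.6 CPM in OSR1, 12.9 and 10.7 CPM in OSR2 and 9.22 and 8.85 CPM in EGR1 libraries. The groups line up as KLF4, KLF2, then Control with EGR1, then OSR1 with OSR2. EGR1 overlaps Control and OSR1 overlaps OSR2, and no other groups overlap. KLF15 fell in KLF2 (-0.53, SE 0.12, adjusted p = 0.0044) and KLF4 (-0.78, SE 0.12, adjusted p = 0.00048), and both calls held under all alternatives. It rose in OSR2 (0.39, SE 0.12, adjusted p = 0.019), a call lost without either Control library (adjusted p = 0.098 and 0.061) and without OSR2 replicate 1 (0.26, adjusted p = 0.15), and was not called in OSR1 (0.28, interval 0.01 to 0.55, adjusted p = 0.074).

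Between groups with an insert, KLF15 was lower in KLF2 and KLF4 than in OSR1 and OSR2 libraries (-0.99, SE 0.09, adjusted p = 7.5e-06) and than in EGR1 libraries (-0.67, SE 0.10, adjusted p = 0.0013), under all alternatives tried. KLF15 and KLF9, both glucocorticoid-induced genes in mammals, thus moved in opposite directions in KLF4 libraries, where KLF9 rose and KLF15 fell.

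**Figure D3:**
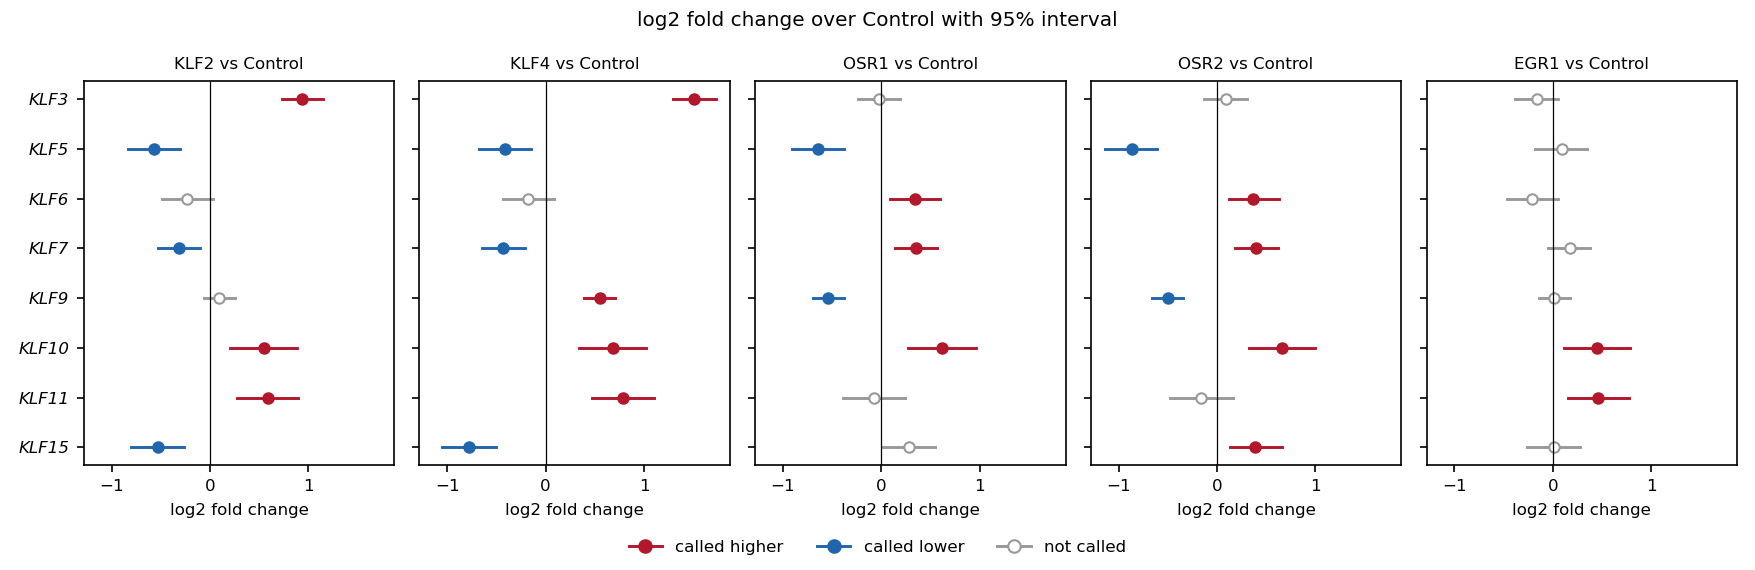
Log2 fold change over Control of the 8 members that no vector carried, for KLF2, KLF4, OSR1, OSR2 and EGR1, with points for the estimate and lines for the unadjusted 95% interval. KLF2 and KLF4 share the direction of each called member, and KLF7 and KLF15 lie on opposite sides of 0 in the KLF and OSR groups; all panels share the Control libraries.

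Between KLF2 and KLF4 libraries, KLF3 and KLF9 were the called ones of the 8 members, both lower in KLF2, and the intervals of the other 6 lay within -0.51 and 0.52 on the log2 scale, which leaves room for differences of that size. Against OSR1 and OSR2, 4 members were higher and 3 lower in KLF2 and KLF4, where 33.0% of all genes were called (15.6% higher and 17.4% lower). Against EGR1, 2 were higher and 3 lower, where 14.4% were called (6.31% and 8.07%). OSR1 and OSR2 against EGR1 gave 1 higher and 3 lower, where 17.7% were called (8.79% and 8.88%). Against the mean of OSR1, OSR2 and EGR1, 3 members were higher (KLF3, KLF9 and KLF11) and 3 lower (KLF6, KLF7 and KLF15) in KLF2 and KLF4, a contrast that called 28.7% of all genes (13.8% higher and 14.9% lower). In that contrast the libraries overlapped for KLF6, KLF9 and KLF11, as they did for KLF9 in the contrast with EGR1. The contrasts of KLF2 and KLF4 with OSR1 and OSR2, of KLF2 and KLF4 with EGR1, and of OSR1 and OSR2 with EGR1 were chosen after the values were seen.

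**Figure D4:**
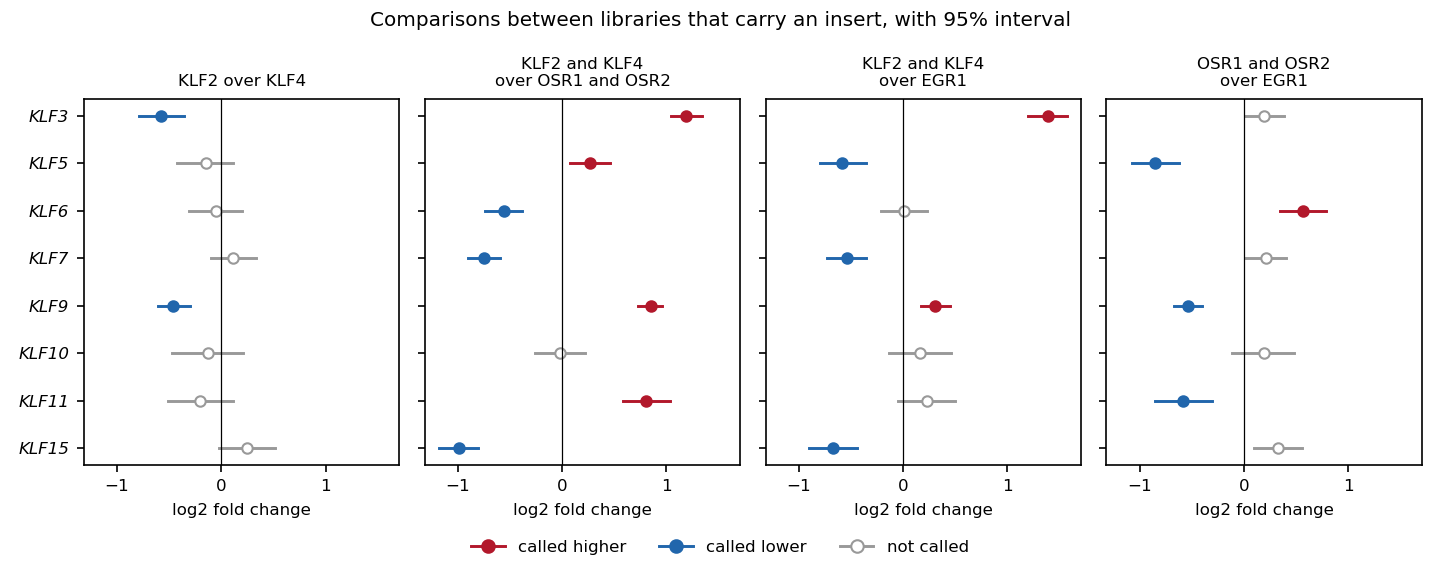
Log2 fold change with unadjusted 95% interval of the 8 members between groups that carry an insert, with no Control library in any contrast. KLF3 (1.19 and 1.39) and KLF15 (-0.99 and -0.67) lie farthest from 0 in the contrasts of KLF2 and KLF4 with OSR1 and OSR2 and with EGR1.

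The wider family held 15 rows with KLF names, of which 5 are not among the 10 members, and SP genes, whose proteins share the zinc fingers. Of 16 further KLF and SP genes listed for comparison, 11 were in the counts and 8 could be tested. In KLF2 libraries 5 of the 8 were higher and 2 lower (median 0.76), and in KLF4 libraries 4 were higher and 1 lower (median 0.74), where 51.6% and 54.2% of all genes were called. OSR1, OSR2 and EGR1 each had 3 higher, with 2, 2 and 1 lower. SP1 and SP2 were called higher and SP3 lower in all 5 groups, and SP4 was not called in any. SP1 had 67 ± 13 CPM in KLF2 and 79.7 ± 0.59 CPM in KLF4 libraries, against 24.5 ± 5.7 CPM in Control, and also 52.9 ± 30, 53.9 ± 0.13 and 65.1 ± 15 CPM in OSR1, OSR2 and EGR1 libraries. No SP gene was called between KLF2 and KLF4 or between these and the other 3 inserts, and KLF12 (0.55, SE 0.06, adjusted p = 5.8e-05) and KLF1 (0.95, SE 0.22, adjusted p = 0.0072) were the called relatives in that last contrast. KLF1, the erythroid member, stayed at or under 1.93 CPM in every library, with 1.91 ± 0.031 CPM in KLF2 against 0.687 ± 0.15 CPM in Control. HBG1, a globin gene and blood marker, was called higher in the same contrast with the other 3 inserts. It averaged 3.62 ± 0.79 CPM in KLF2 and 4.57 ± 1.4 CPM in KLF4. In OSR1, OSR2, EGR1 and Control it averaged 1.49 ± 0.041, 1.66 ± 0.57, 2.12 ± 0.26 and 4.31 ± 0.28 CPM. Of the 3 tested blood markers, which include KLF1, GATA1 was not called between the KLF inserts and the other 3. Its group means were 0.517 (KLF2), 0.514 (KLF4), 0.534 (OSR1), 0.618 (OSR2), 0.569 (EGR1) and 0.264 CPM (Control). The part of blood cells in the KLF1 difference was not tested. The row named KLF18, which was on no list and was looked at after its values were seen, ran from 2.34 to 3.82 CPM in KLF2 and KLF4 libraries and from 3.8 to 4.8 CPM in OSR1, OSR2 and EGR1 libraries, and was at 2.18 and 2.36 CPM in Control.

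**Figure D5:**
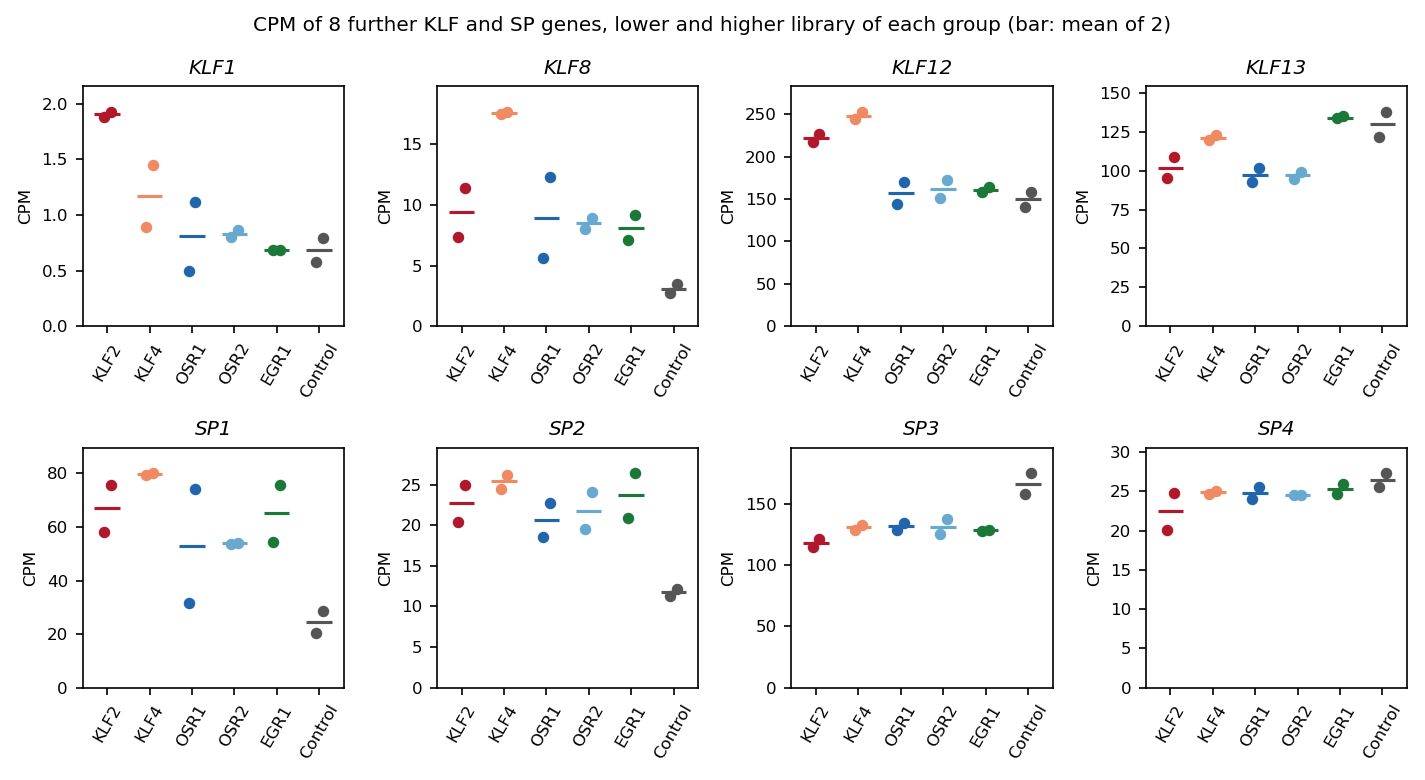
CPM of 8 further KLF and SP genes, with points for the lower and higher library of each group, bars for their mean and an axis from 0 in each panel. KLF12 is highest in KLF2 and KLF4 libraries, whereas KLF8, SP1 and SP2 are above Control in all 5 groups with an insert and SP3 is below it in all 5.

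Partners and regulators of KLF proteins were counted from lists of known genes. Over all genes, 28.1% were called higher and 23.5% lower in KLF2, and 28.7% higher and 25.5% lower in KLF4. In OSR1, OSR2 and EGR1 28.4%, 28.9% and 24.6% were called higher and 22.7%, 23.0% and 20.5% lower. The contrast of the KLF inserts with the mean of the other 3 called 13.8% higher and 14.9% lower. The counts of every list below stand against the shares of the same comparison. Of 15 cofactor genes, 6 were higher and 3 lower in KLF2 and 6 higher and 2 lower in KLF4 libraries (medians 0.16 and 0.11), with 6, 7 and 6 higher and 4, 3 and 3 lower in OSR1, OSR2 and EGR1. HDAC1, a deacetylase of the SIN3 complex, fell (-0.86 and -1.0, SE 0.09) and SIN3A, its scaffold, rose (0.88 and 0.91, SE 0.12) in both, but the same held in OSR1, OSR2 and EGR1 libraries. The CtBP gene CTBP1 fell in KLF2 (-0.20, SE 0.07, adjusted p = 0.031) and was not called in KLF4 (-0.14, adjusted p = 0.12). It fell in OSR1 (-0.48), OSR2 (-0.53) and EGR1 (-0.26), and was higher in KLF2 and KLF4 than in the mean of the other 3 inserts (0.25, SE 0.04, adjusted p = 0.0015). Against OSR1 and OSR2 alone CTBP1 was called higher too, but against EGR1 alone it was not called. There the KLF2 libraries (165 and 182 CPM) overlap EGR1 (164 and 169 CPM). Of 10 genes for ubiquitin ligases and related turnover, 2 were higher and 1 lower in KLF2 and 2 higher and 2 lower in KLF4, with 2, 1 and 1 higher and 1 lower in each of OSR1, OSR2 and EGR1. FBXW7, a ligase subunit that targets KLF2 and KLF5 in mammals, rose in both (0.41 and 0.32, SE 0.09, adjusted p = 0.0041 and 0.015), as it did with the other 3 inserts.

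The ERK5 and MEF2 pathway activates the KLF2 and KLF4 genes in endothelium. Of its 10 listed genes 7 were higher and 1 lower in both KLF2 and KLF4 libraries (medians 0.69 and 0.73, against 0.02 and -0.01 over all genes), and 7, 8 and 6 were higher in OSR1, OSR2 and EGR1. PIEZO1, a flow-sensing channel, rose in all 5 groups, by 1.48 in KLF2 and 1.71 in KLF4 (SE 0.25). In the contrast of the KLF inserts with the mean of the other 3, only MEF2A (0.30, SE 0.04, adjusted p = 5e-04) and MEF2B (0.75, SE 0.16, adjusted p = 0.0062) were higher and MEF2C lower (-0.42, SE 0.06, adjusted p = 0.00059). The same 3 genes were called against OSR1 and OSR2, and none of the 10 against EGR1. Over all genes, 28.7% were called against the mean of the other 3 inserts, 33.0% against OSR1 and OSR2 and 14.4% against EGR1. MEF2B had 5.32 and 7.65 CPM in KLF2 libraries, which overlaps OSR1 (3.89 and 6.47 CPM) and EGR1 (4.94 and 6.73 CPM). In KLF4 libraries it had 11.6 and 11.8 CPM.

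Of 12 tested genes that KLF2 and KLF4 are known to control in endothelium, 7 were higher and 1 lower in both KLF groups (medians 0.70 and 0.84). The list holds genes that KLF2 lowers as well as genes that it raises, so a count of higher genes does not measure a target response. In OSR1, OSR2 and EGR1 6, 7 and 5 were higher and 3, 3 and 2 lower (medians 0.63, 0.74 and 0.23). Set against those 3 inserts, 6 were higher and 1 lower in KLF2 and KLF4 (median 0.48, against 0.01 over all genes, of which 13.8% were called higher and 14.9% lower). THBD, the thrombin receptor thrombomodulin, rose in KLF2 (1.68, SE 0.27, adjusted p = 0.00069) and KLF4 (2.35, SE 0.27, adjusted p = 8.6e-05), and in OSR1 and OSR2 too (1.67 and 1.93). S1PR1, a sphingosine phosphate receptor that KLF2 activates in T cells of mouse, was not called over Control (0.09 and 0.03), but was higher than with the other 3 inserts (0.62, SE 0.07, adjusted p = 9.8e-05), where it fell. EDN1, the endothelin gene that KLF2 lowers in endothelium, was not called over Control in KLF2 (-0.20, adjusted p = 0.36) or KLF4 (-0.44, adjusted p = 0.054). It averaged 7.85 ± 1.3 CPM in KLF2 and 6.65 ± 0.43 CPM in KLF4, 12.1 ± 0.42 CPM in OSR1, 14.3 ± 0.38 CPM in OSR2 and 8.79 ± 2.3 CPM in EGR1, against 9.0 ± 0.045 CPM in Control. It was lower with the KLF inserts than with OSR1 and OSR2 (-0.87, SE 0.12, adjusted p = 0.00028) and was not called against EGR1 (-0.28, adjusted p = 0.27). VCAM1, an adhesion gene of the list, was called higher in KLF2 and KLF4 than in EGR1 libraries. It was also among the genes called higher in KLF2 libraries (3.12 and 3.89 CPM) than in Control (2.18 and 2.25 CPM). It averaged 3.5 ± 0.55 CPM in KLF2, 2.57 ± 0.34 CPM in KLF4 and 1.62 ± 0.11 CPM in EGR1. In OSR1, OSR2 and Control it averaged 2.39 ± 0.2, 2.07 ± 0.18 and 2.21 ± 0.051 CPM.

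Of 9 glucocorticoid response genes, 7 were higher and none lower in both KLF groups (medians 0.64 and 0.74). In OSR1, OSR2 and EGR1 6, 5 and 6 were higher and 0, 0 and 1 lower (medians 0.38, 0.34 and 0.50), and 5 were higher and 1 lower in KLF2 and KLF4 against these 3 inserts. MAOA, a monoamine oxidase gene that KLF11 regulates in human cells, had 57.8 ± 3.7 CPM in KLF2 and 48.0 ± 1.7 CPM in KLF4 libraries, against 24.2 ± 0.88 CPM in Control. It rose in both (1.25 and 0.99, SE 0.09, adjusted p = 1e-05 and 2.1e-05) and was higher than with the other 3 inserts (1.05, SE 0.06, adjusted p = 4.9e-07). FKBP5, a chaperone gene that glucocorticoid induces, rose with all 5 inserts, by 0.80 in KLF2 and 0.71 in KLF4 (SE 0.07). Of 8 TGF-beta early response genes, 6 and 8 were higher in KLF2 and KLF4, and 7, 5 and 4 in OSR1, OSR2 and EGR1. SKIL, a feedback gene of that pathway, was lower in KLF2 than in KLF4 libraries (-0.37, SE 0.07, adjusted p = 0.018). Of 7 immediate early genes, 4 were higher in KLF2 and 5 in KLF4, against 4, 5 and 3 in OSR1, OSR2 and EGR1, and 2 were lower in each of the 5 groups.

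Markers of other cells that express KLF genes moved beside these results. Of 8 epidermal markers, 2 were higher in KLF2 and 5 higher and 1 lower in KLF4, and they summed to between 180 and 204 CPM in KLF2 and 493 and 576 CPM in KLF4 libraries, against 113 and 122 CPM in Control, most of it KRT7. The OSR1, OSR2 and EGR1 libraries summed to 123 to 198, 138 to 210 and 121 to 193 CPM, which overlaps KLF2 but not KLF4, and none of the 8 was called there. None was at 0, and EPCAM, an epithelial adhesion gene, was at 2.84 ± 0.49 and 6.71 ± 1.7 CPM, against 4.86 ± 0.59 CPM in Control. Of 7 endothelial markers, 3 were higher and 1 lower in KLF2 and 4 higher and 1 lower in KLF4, with sums from 326 to 337 and from 415 to 428 CPM, against 384 and 394 CPM in Control. KDR, a VEGF receptor, rose by 0.94 in KLF2 and 3.00 in KLF4 (SE 0.10). PECAM1, an endothelial adhesion gene, fell in both, by 1.17 with the KLF2 insert (adjusted p = 0.00018) and by 1.32 with the KLF4 insert (adjusted p = 7.5e-05, SE 0.14 each), and fell in OSR1, OSR2 and EGR1 too. ERG, an endothelial factor that cartilage also expresses and the largest part of the sum, was not called in KLF2 or KLF4 (-0.07 and -0.03). In OSR1 and OSR2 libraries, 3 endothelial markers were higher and 2 lower in each. Of 6 macrophage markers, 5 were higher and 1 lower in both OSR1 and OSR2, where 28.4% and 28.9% of all genes were called higher. In KLF2 and KLF4, 4 of them were higher and 0 lower, and in EGR1 4 higher and 1 lower. They summed to between 33.6 and 36.3 CPM in Control and between 36.3 and 44 CPM in libraries with an insert. The part of these markers in the members' levels was not tested, and in bulk RNA fewer cells of a type and less RNA per cell cannot be told apart. Limb mesenchyme markers, which stand for the labelled cell type, were present in every group. They summed to between 11500 and 13500 CPM in the 4 KLF libraries and between 9690 and 12300 CPM in OSR1, OSR2 and EGR1 libraries, against 6940 and 7490 CPM in Control. Most of each sum was the collagen gene COL1A2, with 11300 ± 1300 CPM in KLF2, 10700 ± 750 CPM in KLF4 and 6340 ± 380 CPM in Control. Of the 7 markers, 5 were higher in KLF2 and 4 in KLF4, and 0 were lower.

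Likeness of profile was described as the root mean square difference of centred log2 CPM, over the 12 libraries or, for KLF2 and KLF4, over the 10 without their own insert, among 9952 genes with a symbol and at least 5 CPM. KLF3 was most like ANXA1 (0.17) and SYBU (0.18). KLF9 was most like NRK and ADGRG6 (0.11 each), KLF10 like GALK1 (0.06) and B4GALT3 (0.07), and KLF11 like EVA1A (0.10) and SAPCD2 (0.12). KLF5 was closest to TMEM47 (0.11) and MGAT5 (0.12), KLF6 to PARD6B (0.10) and CADPS (0.12), and KLF7 to CTNNA2 (0.09). KLF15 was closest to SMTNL2 (0.10) and CPE (0.11), KLF2 to SLC37A2 (0.17) and LRRC75B (0.18), and KLF4 to NT5C1B (0.07) and TNFRSF1B (0.08). No member was among the nearest genes of another, and genes that change little over the libraries have small differences by construction.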

How the data were processed

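The deposited values are raw gene counts, 1 whole-number table per library, which the authors did not normalise. Per the submitters' processing notes, TopHat2, SAMtools, featureCounts, DESeq2 and the chicken build galGal4 were used. Versions, annotation, counting strand and the handling of reads that match several genes were not given in the sources used here, so reads shared between paralogs are uncertain. Per the labels, libraries were strand-specific and paired-end. No genome or sequence table was used, and a RefSeq table served for names only (10 of 10 members matched).

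In R 4.3.3, edgeR 4.0.16 kept 18979 genes (filterByExpr, minimum count 10), scaled them by TMM (factors 0.9521 to 1.041) and fitted all 12 libraries with a term per group (6 residual degrees of freedom, robust option). Standard errors are Wald values with the quasi-likelihood variance. Figures used matplotlib 3.10.9. On simulated data the test found most larger changes, missed many small ones, and made more false calls than the rate set in most comparisons. Far fewer genes were changed in the simulated data than were called against Control, so these rates need not hold for the real libraries. Replicates differed by more than counting noise in all 6 groups (chi-square of 13.2 to 88.29 per degree of freedom). Alternatives were DESeq2 1.42.0, other scalings, no filter, only the groups compared, a replicate block and leaving out each library. The 10 members are all named. Relatives are named if they averaged at least 1 CPM, other list genes if among the 3 called genes with the smallest adjusted p. A gene named by 1 comparison is given in others too. For KLF7, 1 gene of like profile is not reported here. EPCAM, ERG and KLF18 were named after their values were seen. Members and lists were chosen with earlier results of these data known, the robust option was taken from that earlier work, and 3 contrasts were added after the values were seen.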

Additional observations from a re-analysis of the deposited data

How the results depend on the processing

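For 10 members in 10 comparisons, 63 of 100 log2 fold changes were called and 44 of these calls held under all 20 alternatives. Of 37 that were not called, 32 stayed so. No called value changed sign. Over all genes, the share called ran from 2.66% in KLF2 against KLF4 to 54.2% in KLF4 against Control. How many of the calls over all genes held under the alternatives was not computed. The members' calls include KLF2 and KLF4 in contrasts with their own libraries, where the counts include the insert. All of those were called and held, so the shares called and held are lower among the rest. Calls depend on single libraries in the KLF2, OSR1, OSR2 and EGR1 comparisons with Control, and also between inserts, as in KLF2 against KLF4. The KLF4 comparison with Control, with 8 members called, depended on them less. Counting the inserted gene where there is one, 7 members were called in KLF2, 6 in OSR1, 7 in OSR2 and 2 in EGR1. Leaving out 1 library at a time gave 4 to 7 in KLF2, 3 to 7 in OSR1, 4 to 8 in OSR2 and 0 to 2 in EGR1, with the lowest values without Control replicate 1 (also without OSR1 replicate 2 and EGR1 replicate 1). At 0 calls in EGR1 no member had an unadjusted p under 0.05 in edgeR, and DESeq2 on all libraries called 2. With library totals alone EGR1 had 1. KLF2 against KLF4 had 4, 2 to 4 when 1 library was left out and 2 in a fit of those 4 libraries. OSR1 and OSR2 against EGR1 had 5, and 3 to 6 when 1 library was left out. Of the 4 calls in KLF2 against KLF4, 2 are the inserted genes themselves. A count of 2 there therefore means that no other member was called. Where a group keeps 1 library it is assumed to vary like the others. With the replicate block the counts were 7 in KLF2, 8 in KLF4, 6 in OSR1, 7 in OSR2 and 2 in EGR1, and no call changed. Deviations of same-numbered libraries correlated from -0.29 to 0.22 over 15 pairs of groups, 4 of them over 0.1. They show no strong effect shared by equal numbers, but cannot tell whether same-numbered libraries share embryos or a day. Over all genes, leaving out Control replicate 1 left 6303 calls in KLF2, 5807 in OSR1, 6362 in OSR2 and 4698 in EGR1, against 9801, 9688, 9853 and 8559 with all libraries. KLF2 against KLF4 had 505 calls over all genes, 761 by DESeq2 and 258 in a fit of those 4 libraries. It had 169 without KLF2 replicate 2, 93 without KLF4 replicate 1 and 158 without KLF4 replicate 2. Without EGR1 replicate 1, EGR1 against Control had 4597, KLF2 and KLF4 against EGR1 1664 (2730 with all libraries) and OSR1 and OSR2 against EGR1 1835 (3354). Without EGR1 replicate 2 KLF2 and KLF4 against EGR1 had 1590 and OSR1 and OSR2 against EGR1 2228. Counting error of a member's count was at most 4.99% (1 SD).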
